A study of Mus musculus with 20 samples.

Results

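Fc receptors bind the constant part of antibodies, and 7 mouse genes of this group were followed: Fcgr1, Fcgr3 and Fcgr4, which encode activating IgG receptors, Fcer1g, which encodes their shared signalling chain, Fcgr2b, which encodes the inhibitory IgG receptor, Fcgrt, which encodes the neonatal Fc receptor, and Fcrls, an Fc receptor-like gene. They were taken by gene symbol and were 7 of the 24421 genes counted. All 7 were present in the files of all 20 libraries and passed the filter on low counts. The libraries are RNA sequencing of macrophages from C57BL/6JRj mice, 4 from each of 5 populations: peritoneal macrophages, choroid plexus macrophages, dura macrophages with high MHC class II, dura macrophages with low MHC class II, and microglia from the brain. The dura is the tough sheet lining the skull, and cerebrospinal fluid is made by the choroid plexus inside the ventricles. The low group is written "int" in its sample titles and "lo" in its cell type label, and it is called MHC II-low here. No transgene, treatment, age or way of isolating the cells is given in the labels, and nothing says whether the 4 libraries of a population came from separate animals, so p-values reflect only how far these samples spread, and that spread may be technical.

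IgG receptors of macrophages come in opposed kinds. The activating receptors FcγRI, FcγRIII and FcγRIV have no signalling motif of their own and pair with the common γ chain made from Fcer1g, whose immunoreceptor tyrosine-based activation motif (ITAM) recruits the kinase Syk and drives uptake of antibody-coated particles and release of mediators. The inhibitory receptor FcγRIIB carries an inhibitory motif (ITIM) in its own tail that recruits the phosphatase SHIP1 and dampens those signals, so the ratio of the 2 kinds is often used to describe how readily a macrophage is set off by immune complexes. FcRn, made from Fcgrt together with β2-microglobulin, binds IgG inside acidic endosomes and returns it to the surface or passes it on. Fcrls is known as a gene of the mouse microglial expression signature.

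The 5 populations differed in which receptor genes were high. Fcgr3 was nearly level throughout. Fcgr1 was 5.41- to 6.99-fold lower in peritoneal macrophages than in the other populations, and Fcrls was 32.1- to 83.7-fold lower there. Fcgr4 was higher in peritoneal, choroid plexus and both dura populations than in microglia, by 2.43- to 9.86-fold. The smallest of these differences, in MHC II-low dura, lost its call when some single libraries were left out. Fcgr2b and Fcgrt were highest in dura macrophages, so that the inhibitory receptor made up 14.4 parts per 100 parts of activating receptor transcript in MHC II-low dura and 4.98 in peritoneal macrophages, counted per kb of exon.

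The promoters of the 3 activating receptors, of the inhibitory receptor and of Fcrls are shown. Those of Fcgrt and Fcer1g were searched too and are not printed, although Fcgrt levels also diverged. Each is 300 bases long, 250 before to 50 after the start of the gene in RefSeq on GRCm38.p6, read 5′ to 3′ on the gene's own strand, and all 7 genes had an entry. Capitals mark matches to either of 2 short motifs.
Fcgr1, chr3:96293920-96294219, minus strand: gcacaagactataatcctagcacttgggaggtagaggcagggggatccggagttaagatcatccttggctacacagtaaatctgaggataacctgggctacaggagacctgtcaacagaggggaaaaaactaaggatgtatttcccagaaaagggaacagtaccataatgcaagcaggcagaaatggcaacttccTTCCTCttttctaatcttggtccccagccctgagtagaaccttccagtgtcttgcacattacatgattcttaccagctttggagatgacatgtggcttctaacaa
Fcgr3, chr1:171059354-171059653, minus strand, the first of 2 listed starts: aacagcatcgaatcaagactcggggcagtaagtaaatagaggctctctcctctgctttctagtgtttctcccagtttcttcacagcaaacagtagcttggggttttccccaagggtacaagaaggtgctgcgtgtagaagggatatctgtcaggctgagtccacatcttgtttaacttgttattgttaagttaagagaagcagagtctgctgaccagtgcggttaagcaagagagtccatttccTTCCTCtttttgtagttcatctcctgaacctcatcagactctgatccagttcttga
Fcgr4, chr1:171018676-171018975, plus strand: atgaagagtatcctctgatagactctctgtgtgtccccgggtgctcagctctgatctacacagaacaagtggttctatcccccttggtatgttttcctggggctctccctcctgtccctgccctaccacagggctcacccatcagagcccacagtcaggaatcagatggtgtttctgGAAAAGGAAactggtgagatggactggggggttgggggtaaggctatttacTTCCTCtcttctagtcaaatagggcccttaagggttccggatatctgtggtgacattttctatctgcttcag
Fcgr2b, chr1:170976022-170976321, minus strand: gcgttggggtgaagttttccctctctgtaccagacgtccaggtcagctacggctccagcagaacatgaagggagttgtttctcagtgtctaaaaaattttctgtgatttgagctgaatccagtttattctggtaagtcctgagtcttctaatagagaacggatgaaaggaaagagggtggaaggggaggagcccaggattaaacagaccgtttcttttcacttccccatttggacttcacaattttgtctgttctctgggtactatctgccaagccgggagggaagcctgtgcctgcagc
Fcrls, chr3:87263475-87263774, minus strand: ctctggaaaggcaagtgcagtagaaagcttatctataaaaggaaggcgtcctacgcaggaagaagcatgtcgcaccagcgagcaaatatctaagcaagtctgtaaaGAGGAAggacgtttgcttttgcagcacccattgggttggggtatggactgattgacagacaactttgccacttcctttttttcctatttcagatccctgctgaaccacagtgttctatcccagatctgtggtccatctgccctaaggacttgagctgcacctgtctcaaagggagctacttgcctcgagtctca
The motifs searched, on both strands, were a core of the PU.1 site (GAGGAA, or TTCCTC on the other strand) and a pair of half-sites for interferon regulatory factors (GAAANNGAA, or TTCNNTTTC on the other strand). The PU.1 core was found in 4 of the 7 promoters, with its first base at -55 from the start in Fcgr1, at -6 in Fcgr3, at -22 in Fcgr4 and at -144 in Fcrls, and in 28.3% of all 32851 promoters of this length. The interferon regulatory motif was found in the Fcgr4 promoter, as GAAAAGGAA at -73, and in 8.56% of all promoters. No match overlapped another, and the windows of Fcgr2b, Fcgrt and Fcer1g held none of these letters, which says nothing of whether the factors bind.

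Gene counts came to 13383274 to 32611875 per library, and the lowest count of any of the 7 genes in a library was 152 reads. Summed markers matched the labels: the microglia list (7 genes, among them Tmem119) came to at most 7591 CPM in the other populations and to 27780 to 37330 CPM in microglia, and the large peritoneal macrophage list (7 genes, among them Gata6) to 16530 to 20920 CPM in peritoneal macrophages and to at most 47.6 CPM elsewhere. The border macrophage list (7 genes, among them Mrc1) summed to 3348 to 13260 CPM in choroid plexus and dura macrophages, to 1115 to 2381 CPM in peritoneal macrophages and to 18.03 to 25.8 CPM in microglia. Its genes did not all follow the sum. Pf4 was highest in peritoneal macrophages, at 1146 CPM against 305.5 to 716.8 CPM in choroid plexus and dura. Lyve1 was at 69.3 CPM in peritoneal macrophages and 3.19 CPM in choroid plexus. Mrc1, Cd163, Ms4a7, F13a1 and Cbr2 were lower in peritoneal macrophages than in choroid plexus and both dura populations. The MHC class II list (5 genes) had 43730 to 61590 CPM in choroid plexus macrophages and 52640 to 59100 CPM in MHC II-high dura. It had 2099 to 2327 CPM in MHC II-low dura and at most 188.3 CPM in microglia. Peritoneal libraries spread widely, from 484.3 CPM in replicate 3 to 4673 CPM in replicate 1. Levels in CPM are reads per 1e+06 gene counts of a library after TMM scaling. Fold changes are on the log2 scale with their standard error (SE), and called means 2-fold or more with an adjusted p under 0.05 (edgeR, over 13960 genes). Microglia replicate 3 stood apart. The 8 markers of choroid plexus epithelium summed to 3930 to 7415 CPM in choroid plexus macrophages, to 31.0 CPM or less in dura and peritoneal macrophages, to 20150 CPM in that library and to 65.3 to 708.7 CPM in the other microglia libraries. The same library was the lowest of the microglia for all 7 genes, for the microglia list (27780 CPM) and for 7 macrophage core genes (15000 CPM, against 17870 to 21740 CPM in the others). Without it, MHC II-high dura over microglia lost the call of Fcgr2b (log2 0.89) and MHC II-low dura over microglia that of Fcgr4 (log2 1.03, adjusted p = 0.0977), and no other call of the 7 genes against microglia was lost or gained. In bulk libraries such as these, fewer cells of a type and less RNA per cell cannot be told apart.

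Fcgr1 encodes FcγRI (CD64), the receptor that binds monomeric IgG with high affinity. The 4 peritoneal libraries had 71.4, 29.9, 48.1 and 60.5 CPM. Choroid plexus libraries had 351.3, 338.5, 377.4 and 399.1 CPM. The MHC II-high dura libraries had 420.2, 229.0, 337.0 and 279.2 CPM, MHC II-low dura libraries 365.1, 273.2, 321.4 and 300.7 CPM, and microglia libraries 265.6, 200.4, 263.7 and 405.9 CPM. Every peritoneal library lay below every library of the brain and its borders, while the ranges of the other populations overlapped. The mean was 52.5 ± 17.8 CPM in peritoneal macrophages (SD, n = 4), against 283.9 ± 86.8 CPM in microglia and 366.6 ± 27.1 CPM in choroid plexus macrophages, the lowest and highest of the other means. The log2 fold change of peritoneal macrophages was -2.81 ± 0.25 against choroid plexus (adjusted p = 1.38e-08), -2.59 ± 0.25 against MHC II-high dura (4.53e-08), -2.59 ± 0.25 against MHC II-low dura (3.84e-08) and -2.44 ± 0.25 against microglia (4.98e-08). In the 6 comparisons among the other populations the adjusted p lay between 0.224 and 0.998, and log2 fold changes between 0.01 and 0.37, so no neighbours in the order choroid plexus, MHC II-high dura, MHC II-low dura, microglia differed beyond their spread.

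Fcgr3 encodes FcγRIII, the activating receptor for IgG complexes that mouse macrophages, natural killer cells and neutrophils share. Peritoneal libraries had 1326, 1051, 1251 and 1026 CPM and choroid plexus libraries 1009, 1031, 1125 and 1070 CPM. MHC II-high dura libraries had 1026, 986.6, 992.5 and 880.2 CPM, MHC II-low dura libraries 1012, 1159, 1061 and 959.6 CPM, and microglia libraries 1183, 980.7, 1259 and 1126 CPM. All 5 ranges overlapped. The highest population mean (peritoneal, 1164 ± 148.2 CPM) was 1.20-fold the lowest (MHC II-high dura, 971.4 ± 63.2 CPM), a ratio at percentile 1.93 among all tested genes. That pair was the one comparison of 10 past the adjusted p, with a log2 fold change of 0.26 ± 0.10 (adjusted p = 0.0345), and it was under 2-fold. The markers of natural killer cells (6 genes) summed to 4.88 CPM or less in every library. Those of neutrophils (7 genes) summed to 511.3 to 651.3 CPM in microglia and to 99.9 to 286.8 CPM elsewhere. Most of this was Csf3r, at 579.4 CPM in microglia, while S100a8 averaged at most 1.68 CPM in any population. The part of neutrophil RNA in the Fcgr3 levels was not tested.
Per kb of exon, Fcgr3 was the most abundant of the 3 activating receptors in every population, with means of 559.6 to 670.2 CPM per kb against 20.3 to 141.6 for Fcgr1 and 12.5 to 123.2 for Fcgr4. Of the 50-base stretches in its exons, 166, or 9.58%, also occur in Fcgr2b, where they make up 2.92% of the exon sequence, so counts of these 2 genes may include some reads of each other. No member other than Fcgr3 and Fcgr2b shared a 50-base stretch with another gene.

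Fcgr4 encodes FcγRIV, an activating receptor of intermediate affinity that binds mouse IgG2a and IgG2b. It was graded over the populations. Peritoneal libraries had 325.4, 56.9, 62.9 and 173.8 CPM and choroid plexus libraries 126.5, 109.9, 138.7 and 204.5 CPM. The MHC II-high dura libraries had 118.8, 62.4, 90.9 and 84.4 CPM, MHC II-low dura libraries 41.1, 33.5, 34.9 and 43.1 CPM, and microglia libraries 16.7, 9.38, 12.5 and 24.3 CPM. Microglia lay below all other libraries and MHC II-low dura below all libraries of the remaining 3 populations, whose ranges overlapped. Against microglia the log2 fold change was 3.30 ± 0.48 in peritoneal macrophages (adjusted p = 1.2e-05), 3.21 ± 0.48 in choroid plexus (4.01e-05), 2.51 ± 0.47 in MHC II-high dura (0.000264) and 1.28 ± 0.46 in MHC II-low dura (0.0278). Against MHC II-low dura it was 2.02 ± 0.45 in peritoneal macrophages (0.0011) and 1.93 ± 0.45 in choroid plexus (0.0044).
The last of the differences from microglia rested on single libraries: without MHC II-low replicate 1 or 4, or microglia replicate 1, 3 or 4, the adjusted p of MHC II-low dura over microglia was 0.0532, 0.0671, 0.0579, 0.0977 or 0.0827. Peritoneal replicate 1 was the highest library, and without it the log2 fold change of peritoneal macrophages was 2.64 against microglia, 1.36 against MHC II-low dura, 0.14 against MHC II-high dura and -0.57 against choroid plexus, compared with 3.30, 2.02, 0.80 and 0.09 with it. Without peritoneal replicate 2 or 3 instead, Fcgr4 was called higher in peritoneal macrophages than in MHC II-high dura, at log2 1.07 (adjusted p = 0.0371) or 1.06 (0.0494).
MHC II-high over MHC II-low dura gave a log2 fold change of 1.23 ± 0.44 with an adjusted p of 0.0926, although their libraries did not overlap. It was called by DESeq2 (adjusted p = 0.0485), with only these 2 populations in the fit (0.000331) and without peritoneal replicate 1 (0.0302). Fcgr4 is also known from monocytes, whose marker list (8 genes) summed to 1080 to 1279 CPM in MHC II-high dura and 100.5 to 191.2 CPM in MHC II-low dura. Most of it was Ccr2, at 1132 and 106.3 CPM, while Ly6c2 was at 1.65 and 1.70 CPM. Its part in the Fcgr4 difference was not tested.

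Fcer1g encodes the γ chain that carries the ITAM for all 3 activating receptors. Peritoneal libraries had 477.9, 461.1, 453.4 and 419.5 CPM and choroid plexus libraries 723.5, 819.1, 950.5 and 810.2 CPM. MHC II-high dura libraries had 995.7, 1011, 1033 and 997.1 CPM, MHC II-low dura libraries 938.5, 843.5, 813.6 and 896.2 CPM, and microglia libraries 566.5, 471.0, 619.8 and 545.7 CPM. Peritoneal macrophages and microglia formed a lower pair whose libraries overlapped, and the border macrophages lay above both. MHC II-high dura, at 1009 ± 17.3 CPM, was the highest and peritoneal macrophages, at 452.9 ± 24.6 CPM, the lowest, with a log2 fold change of peritoneal over MHC II-high dura of -1.16 ± 0.09 (adjusted p = 2.44e-09). That was the one called difference of 10, and 8 of 10 passed the adjusted p. Among the others, peritoneal macrophages were lower than choroid plexus (log2 -0.87 ± 0.09) and MHC II-low dura (-0.95 ± 0.09), and MHC II-high dura (0.87 ± 0.09), MHC II-low dura (0.66 ± 0.09) and choroid plexus (0.58 ± 0.09) were higher than microglia, all under 2-fold and at adjusted p of 3.76e-05 or less. In the order MHC II-high dura, MHC II-low dura, choroid plexus, microglia, peritoneal, the first 2 steps did not pass (adjusted p = 0.171 and 0.558), the next did (3.76e-05), and the last did with overlapping libraries (0.0115).
Set per kb beside the summed activating receptors, Fcer1g averaged 518.2 CPM per kb against 813.7 for the receptors in peritoneal macrophages, 944.9 against 866.7 in choroid plexus, 1155 against 752.7 in MHC II-high dura, 998.8 against 755.8 in MHC II-low dura and 630.1 against 777.2 in microglia. On these means the chain stood above the summed receptors in the border macrophages and below them in peritoneal macrophages and microglia. This is a description with no test, and it depends on the annotated exon lengths. In choroid plexus the SD was 107.1 for the chain and 61.2 for the receptors. Its replicate 4 had the chain slightly below the sum, at 927.0 against 154.1 for Fcgr1, 616.2 for Fcgr3 and 162.8 for Fcgr4. Mast cell markers (6 genes) summed to 8.39 CPM or less in every library.

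**Figure D1:**
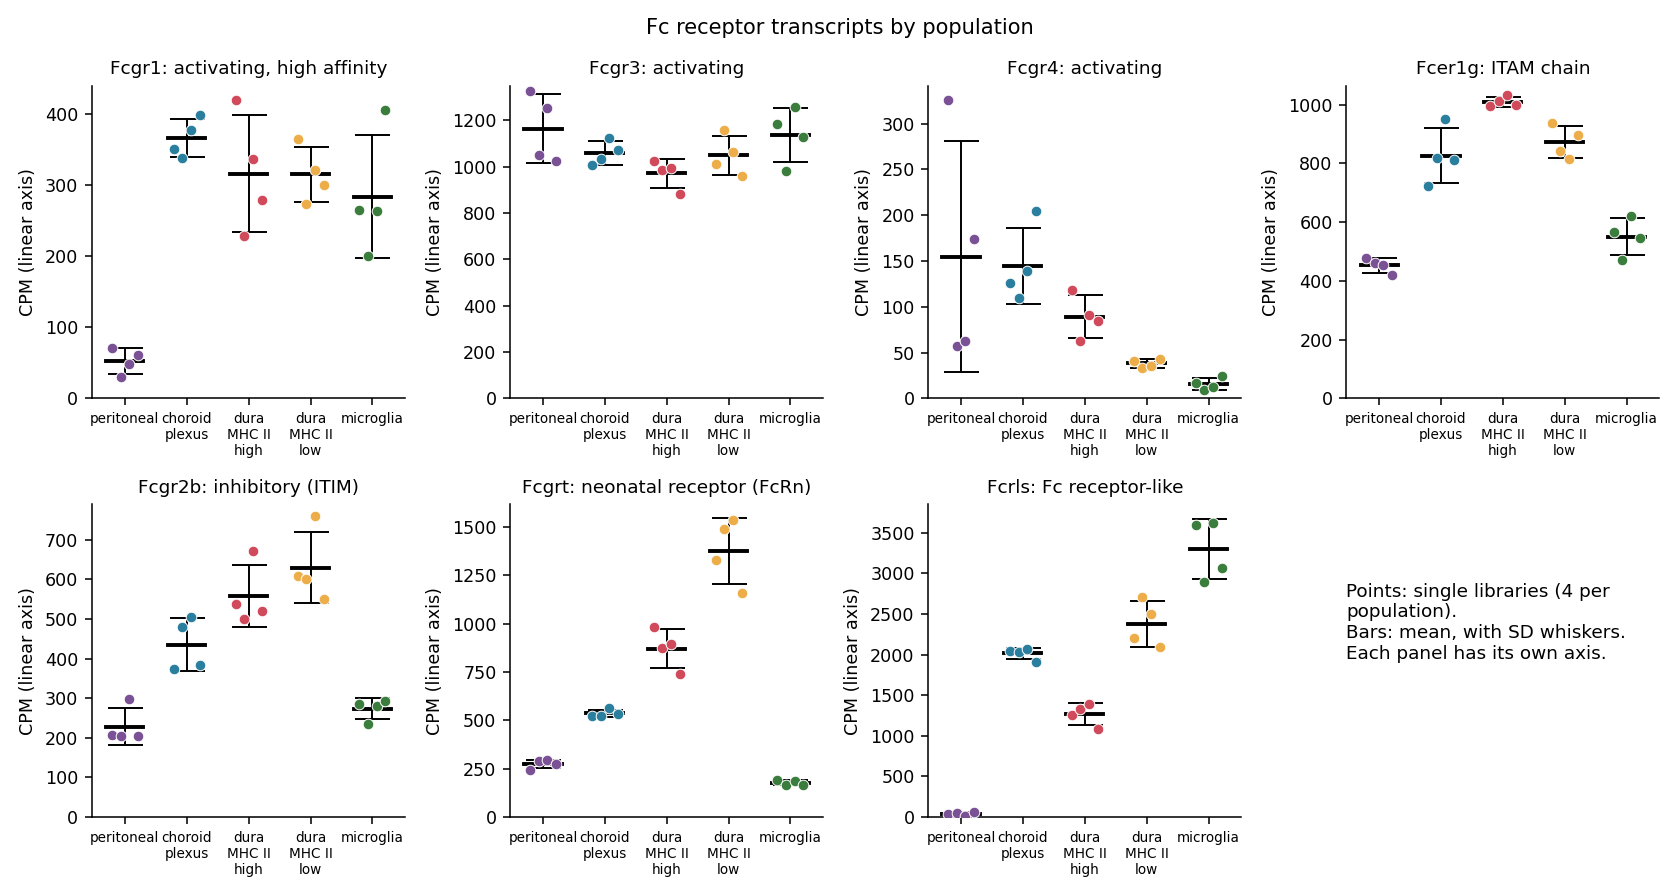
Level of each gene in CPM on a linear axis, by population; points are the 4 libraries, long bars the mean and whiskers the SD. Fcgr3 is nearly level at about 971.4 to 1164 CPM, Fcgr1 and Fcrls are lowest in peritoneal macrophages, Fcgr4 is lowest in microglia, and Fcgr2b and Fcgrt are highest in MHC II-low dura macrophages.

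Fcgr2b encodes FcγRIIB, the inhibitory receptor. Peritoneal libraries had 206.7, 205.3, 297.8 and 203.2 CPM and choroid plexus libraries 372.5, 478.5, 504.9 and 382.9 CPM. The MHC II-high dura libraries had 538.0, 498.7, 672.5 and 519.1 CPM, MHC II-low dura libraries 607.4, 600.9, 759.9 and 550.3 CPM, and microglia libraries 286.0, 234.5, 280.9 and 292.9 CPM. Peritoneal and microglia libraries overlapped and lay below all libraries of the borders. Both dura populations were called higher than microglia, at log2 1.03 ± 0.14 in MHC II-high dura (adjusted p = 5.48e-06) and 1.20 ± 0.15 in MHC II-low dura (8.05e-07), and peritoneal macrophages were called lower than both, at -1.29 ± 0.15 (2.7e-07) against MHC II-high dura and -1.46 ± 0.15 (3.82e-08) against MHC II-low dura. Choroid plexus lay between: peritoneal macrophages were lower (-0.93 ± 0.14, adjusted p = 1.42e-05), choroid plexus was higher than microglia (0.67 ± 0.14, 0.000815) and lower than MHC II-low dura (-0.53 ± 0.14, 0.0084), each under 2-fold. The steps between MHC II-high and MHC II-low dura (0.498), between choroid plexus and MHC II-high dura (0.0714) and between peritoneal macrophages and microglia (0.111) did not pass.
The call of MHC II-high dura over microglia stood close to the 2-fold limit: under 16 of 26 alternatives, among them DESeq2 at 0.94 and the fit without MHC II-high replicate 3 at 0.86, the log2 fold change was under 1, with adjusted p of 9.61e-05 or less. Without peritoneal replicate 3, the one peritoneal library apart from the others, peritoneal macrophages were called lower than choroid plexus (-1.09). B cells carry FcγRIIB as their Fcγ receptor; their marker list (5 genes) summed to 4.26 to 24.2 CPM in peritoneal macrophages and to at most 72.5 CPM elsewhere. It came to 59.2 to 72.5 CPM in choroid plexus, 37.6 to 53.2 CPM in MHC II-high and 31.9 to 38.2 CPM in MHC II-low dura, and 29.6 to 43.7 CPM in microglia. Of that list Cd79b made up most outside the peritoneum, while Ms4a1 averaged at most 4.26 CPM in any population. The part of B cell RNA in the Fcgr2b differences was not tested.

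Fcgrt encodes the heavy chain of FcRn, which salvages IgG and albumin from breakdown. It had the most graded order of the group. Peritoneal libraries had 244.0, 288.5, 293.4 and 274.4 CPM and choroid plexus libraries 524.7, 522.3, 565.6 and 530.4 CPM. MHC II-high dura libraries had 981.2, 871.5, 893.5 and 738.2 CPM, MHC II-low dura libraries 1327, 1487, 1534 and 1158 CPM, and microglia libraries 192.1, 164.9, 185.5 and 165.6 CPM. No 2 populations overlapped, and all 10 comparisons passed the adjusted p. Against microglia the log2 fold change was 2.96 ± 0.11 in MHC II-low dura (adjusted p = 1.41e-14), 2.30 ± 0.11 in MHC II-high dura (5e-13) and 1.60 ± 0.10 in choroid plexus (1.52e-10). Peritoneal macrophages were lower than MHC II-low dura by -2.32 ± 0.11 (3.04e-13) and than MHC II-high dura by -1.66 ± 0.10 (4.46e-11), and choroid plexus was lower than MHC II-low dura by -1.36 ± 0.10 (1.13e-08). The 4 steps under 2-fold were peritoneal over choroid plexus (-0.96 ± 0.10, 1.07e-07), choroid plexus over MHC II-high dura (-0.70 ± 0.10, 7.59e-05), MHC II-high over MHC II-low dura (-0.66 ± 0.10, 0.000228) and peritoneal over microglia (0.64 ± 0.10, 1.67e-05).
The 2 populations that express most MHC class II, choroid plexus and MHC II-high dura, lay below MHC II-low dura in Fcgrt and above peritoneal macrophages and microglia. B2m, whose protein FcRn needs and MHC class I shares, was singled out after its values were seen: it had 3366 ± 1593 CPM in peritoneal macrophages, 3964 ± 416.4 in choroid plexus, 4564 ± 469.7 in MHC II-high dura, 3485 ± 828.0 in MHC II-low dura and 2388 ± 697.5 in microglia, and it was called in none of the 10 comparisons, with 2 past the adjusted p (choroid plexus over microglia, 0.0391, and MHC II-high dura over microglia, 0.00799).

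Fcrls encodes a protein of the Fc receptor-like family. Peritoneal libraries had 40.2, 45.9, 11.9 and 59.7 CPM and choroid plexus libraries 2049, 2037, 2067 and 1911 CPM. The MHC II-high dura libraries had 1259, 1329, 1393 and 1084 CPM, MHC II-low dura libraries 2201, 2713, 2495 and 2098 CPM, and microglia libraries 3597, 2894, 3623 and 3067 CPM. No 2 populations overlapped. Peritoneal macrophages were called lower than every other population, at log2 -6.39 ± 0.35 against microglia (adjusted p = 8.5e-12), -5.92 ± 0.34 against MHC II-low dura (3.52e-11), -5.68 ± 0.34 against choroid plexus (5.24e-11) and -5.01 ± 0.33 against MHC II-high dura (2.54e-10). The fifth called difference was MHC II-high dura under microglia (-1.38 ± 0.28, 0.000447), a 2.60-fold difference. Fcrls was thus not confined to microglia: choroid plexus and MHC II-low dura macrophages had it within 2-fold of microglia, at -0.71 ± 0.28 (0.0481) and -0.47 ± 0.28 (0.168). MHC II-high was lower than MHC II-low dura by -0.91 ± 0.28 (0.0427), under 2-fold. Over the edgeR fits that leave out a library, the adjusted p of this dura difference ranged from 4.47e-05 to 0.114. That of choroid plexus over microglia ranged from 9.17e-05 to 0.103.
The 7 microglia markers, which do not include Fcrls, summed to 6770 to 7591 CPM in choroid plexus, 2758 to 3048 CPM in MHC II-high and 2650 to 3132 CPM in MHC II-low dura, and 27780 to 37330 CPM in microglia. By mean, Fcrls was highest of the 3 border populations in MHC II-low dura, and so were P2ry12, Siglech and Sall1 of that list. The other 4, among them Tmem119, had their highest border mean in choroid plexus. For Fcrls, choroid plexus did not pass the adjusted p (edgeR) against MHC II-low dura (log2 -0.24 ± 0.28, 0.558) or MHC II-high dura (0.67 ± 0.28, 0.0839). The part of admixed microglial RNA in the border libraries was not tested.

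Set side by side, the calls fell as follows, with the share of all tested genes called in that direction in brackets. Peritoneal over choroid plexus had 0 members called higher (12.6%) and 2 lower (24.1%), peritoneal over MHC II-high dura 0 higher (9.18%) and 5 lower (20.1%), peritoneal over MHC II-low dura 1 higher (11.9%) and 4 lower (20%), and peritoneal over microglia 1 higher (18.9%) and 2 lower (25.7%). The 5 lower than in MHC II-high dura were all members but Fcgr3 and Fcgr4. Choroid plexus over MHC II-high dura had 0 higher (5.87%) and 0 lower (4.00%), choroid plexus over MHC II-low dura 1 higher (8.63%) and 1 lower (4.18%), and choroid plexus over microglia 2 higher (12.1%) and 0 lower (7.11%). MHC II-high over MHC II-low dura had 0 higher (2.39%) and 0 lower (1.48%), MHC II-high dura over microglia 3 higher (15.7%) and 1 lower (12.2%), and MHC II-low dura over microglia 3 higher (13.8%) and 0 lower (12.7%). The 3 genes higher in both dura populations than in microglia were Fcgr4, Fcgr2b and Fcgrt.
For the pairs with 0 calls in both directions, 4 members passed an unadjusted p under 0.05 between choroid plexus and MHC II-high dura, where DESeq2 called 0, and 4 between the dura populations, where DESeq2 called 1. Among the counts of 0 in a single direction, the members past an unadjusted p under 0.05 were 0 for higher in peritoneal than in choroid plexus, 1 for higher in peritoneal than in MHC II-high dura, 1 for lower in choroid plexus than in microglia and 0 for lower in MHC II-low dura than in microglia, and DESeq2 called 0 in each. The median log2 fold change of the 7 genes, set beside that of all tested genes, was -0.93 against -0.13 for peritoneal over choroid plexus, -1.29 against -0.10 for peritoneal over MHC II-high dura, -1.46 against -0.11 for peritoneal over MHC II-low dura and -0.26 against -0.11 for peritoneal over microglia. Among the other populations it was 0.12 against 0.01 for choroid plexus over MHC II-high dura, -0.08 against 0.01 for choroid plexus over MHC II-low dura and -0.11 against 0.02 for MHC II-high over MHC II-low dura. Over microglia it was 0.58 against 0.09 in choroid plexus, 0.87 against 0.02 in MHC II-high dura and 0.66 against 0.02 in MHC II-low dura. Comparisons that include the same population share its 4 libraries.

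**Figure D2:**
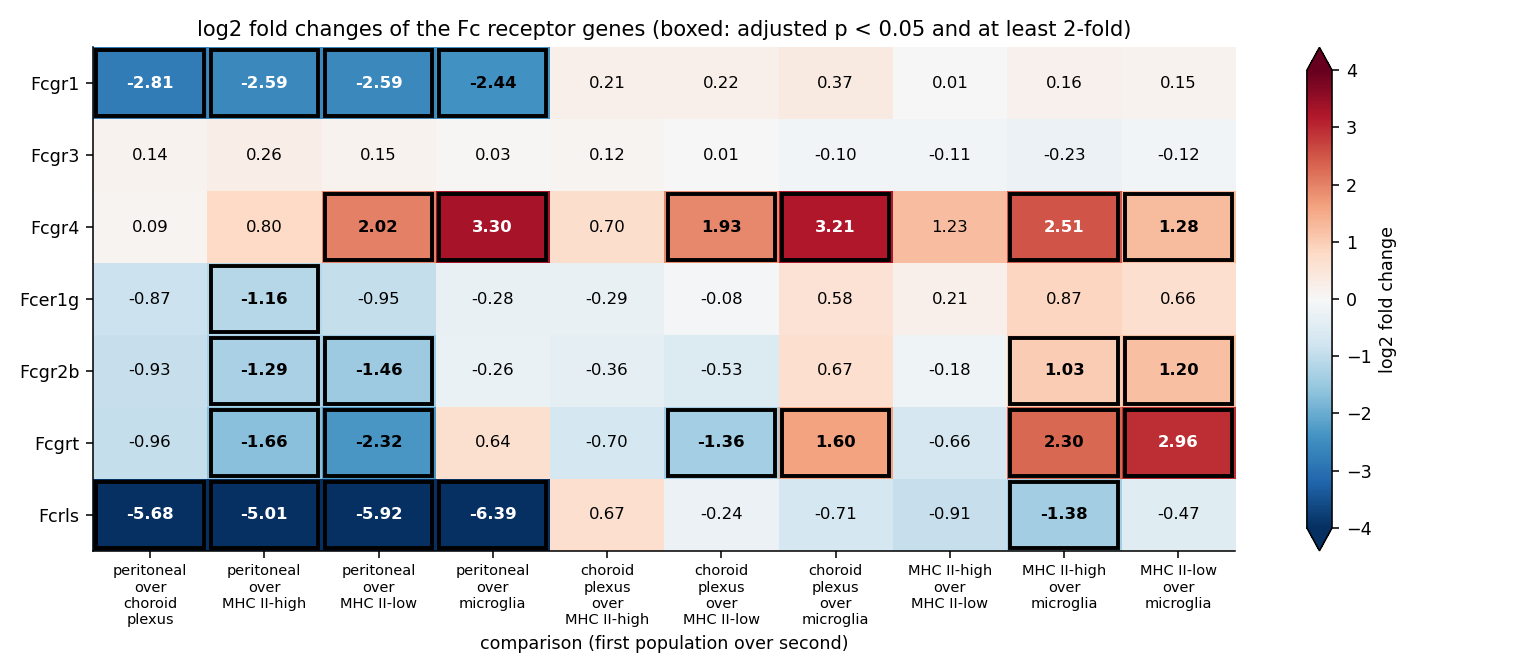
log2 fold change of each gene (rows) in each of the 10 comparisons (columns, first population over second), with boxes around called differences. The Fcgr3 row holds no box, and the 4 peritoneal columns hold the lowest values, down to -6.39 for Fcrls.

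Activating and inhibitory receptors were weighed within each library as log2 of Fcgr2b over the sum of Fcgr1, Fcgr3 and Fcgr4, all as reads per kb of exon. Peritoneal libraries had -4.88, -4.22, -3.94 and -4.42, and choroid plexus libraries -3.67, -3.30, -3.37 and -3.82. The balance was weighted more to Fcgr2b in the dura. Values were -3.19, -3.04, -2.74 and -2.93 in MHC II-high dura libraries, -2.85, -2.95, -2.54 and -2.89 in MHC II-low dura libraries, and -4.01, -4.004, -4.11 and -4.03 in microglia libraries. The choroid plexus lay between the dura and the pair of microglia and peritoneal macrophages. Overlap was seen between peritoneal macrophages and microglia and between the dura populations. Per 100 parts of activating transcript, Fcgr2b averaged 4.98 ± 1.31 in peritoneal macrophages, 8.70 ± 1.46 in choroid plexus, 12.8 ± 1.71 in MHC II-high dura, 14.4 ± 1.91 in MHC II-low dura and 6.09 ± 0.20 in microglia (SD, n = 4 each). These are descriptions with no test.
The sum of the activating receptors and their makeup are given apart. Summed Fcgr1, Fcgr3 and Fcgr4 averaged 813.7 ± 166.8 CPM per kb in peritoneal macrophages, 866.7 ± 61.2 in choroid plexus, 752.7 ± 74.6 in MHC II-high dura, 755.8 ± 39.9 in MHC II-low dura and 777.2 ± 86.6 in microglia. Of the 4 IgG receptors together, Fcgr1 held 2.34% in peritoneal macrophages against 13.2 to 15.0% in the other populations, Fcgr3 held 79.5% in peritoneal macrophages and 79.6% in microglia against 64.8 to 69.8% in the borders, and Fcgr4 held 13.5%, 12.2%, 8.29%, 3.54% and 1.497% in peritoneal, choroid plexus, MHC II-high dura, MHC II-low dura and microglia. The Fcgr4 share ranged from 5.96 to 23.8% among the peritoneal libraries.
The exon length of Fcgr2b, 5790 bases, joins 7 annotated transcripts, so the absolute share depends on the annotation, while a change in that length alone would leave the differences between populations as they are. The balance depends on which activating receptor is set against Fcgr2b. Against Fcgr4 alone the direction over microglia turned, to -2.59 in choroid plexus, -1.54 in MHC II-high dura and -0.16 in MHC II-low dura, where the summed receptors gave 0.50, 1.07 and 1.23. Against Fcgr1 alone the direction of peritoneal macrophages turned, to 1.94 over choroid plexus, 1.33 over MHC II-high dura, 1.18 over MHC II-low dura and 2.19 over microglia, where the summed receptors gave -0.83, -1.39, -1.56 and -0.33.

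**Figure D3:**
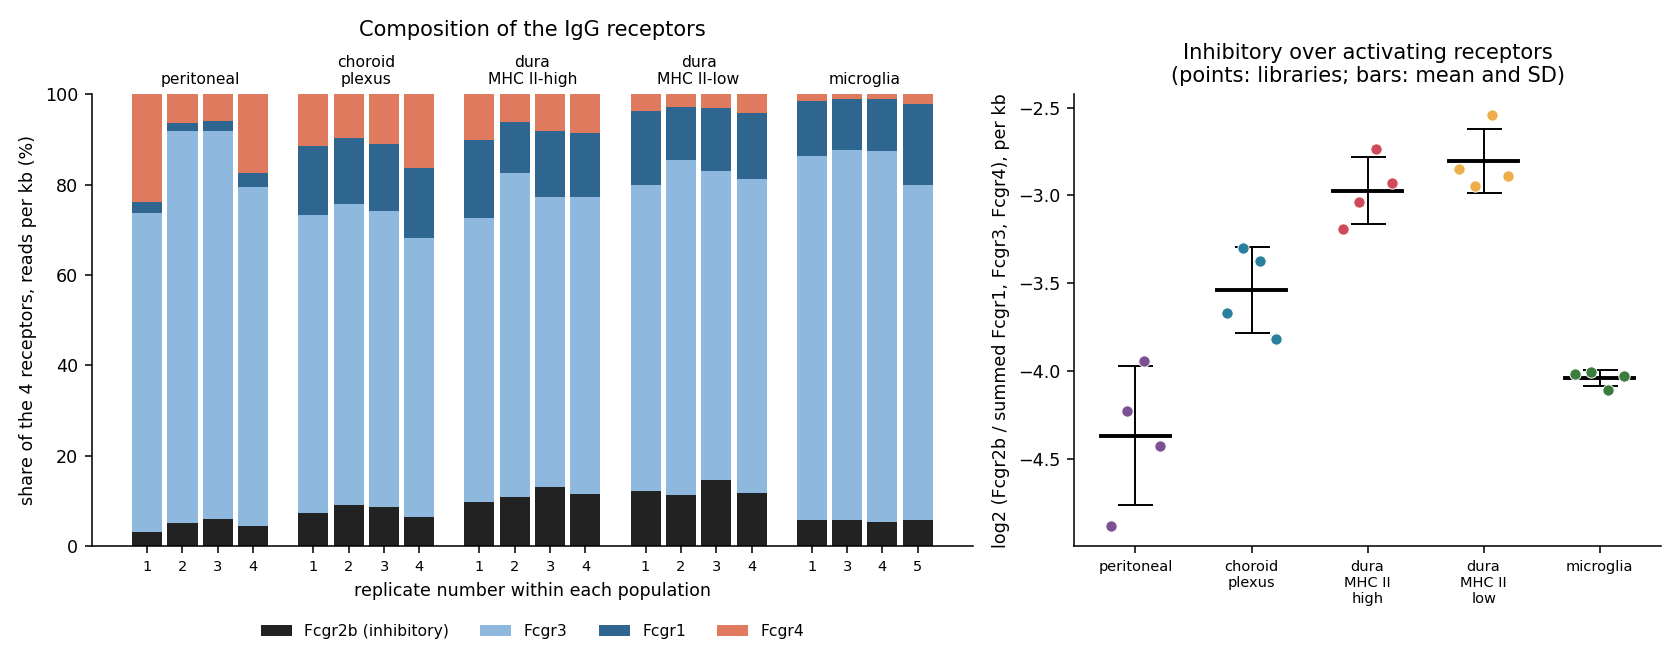
Left, share of each of the 4 IgG receptors in their summed reads per kb (%) in each library, by population and replicate number; right, log2 of Fcgr2b over the summed activating receptors per kb, with points for libraries, bars for means and whiskers for the SD. Fcgr3 is the broadest band in every library, and the right panel is highest for the 2 dura populations, at -2.97 and -2.81.

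Fcgr1 and Fcgr4 are known as interferon-inducible genes, and their spread within populations was set beside a list of 12 interferon response genes (among them Ifit1, Isg15 and Irf7) chosen after the values were seen. The list summed to 2028, 335.8, 365.4 and 1679 CPM in the peritoneal libraries, to 1605, 1517, 1633 and 2006 CPM in choroid plexus, to 4115, 1183, 2480 and 2509 CPM in MHC II-high dura, to 3495, 1318, 2461 and 2466 CPM in MHC II-low dura, and to 176.2, 135.1, 183.8 and 1253 CPM in microglia. The library with the most interferon response transcript was also the one with the most Fcgr1 in 5 of 5 populations and with the most Fcgr4 in 4 of 5, and the library with the least was lowest for both genes in 5 of 5. For the other 5 genes the highest library was shared in 0 to 2 populations and the lowest in 1 or 2. In microglia the least was in replicate 3, the library with epithelial transcript, which was lowest for all 7 genes and so gave a match for each. In the other 4 populations the library with the least was lowest for Fcgr1 and Fcgr4 in 4 of 4 and for the other 5 genes in 0 or 1. In each of these 4 it was the library numbered replicate 2, and the library with the most was replicate 1 in peritoneal and both dura populations. The labels do not say whether libraries of the same number share an animal or a batch, so the matches may not be separate. Peritoneal replicate 1, the highest for Fcgr4, had the highest sum there, and microglia replicate 5, highest for both genes in microglia, had 1253 CPM where the other microglia libraries had at most 183.8 CPM. Between populations, 3 of 4 microglia libraries had the lowest sums, and microglia had the lowest mean Fcgr4 (15.7 CPM) but not the lowest mean Fcgr1 (283.9 CPM). The part of interferon response in the differences of Fcgr1 and Fcgr4 was not tested.

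**Figure D4:**
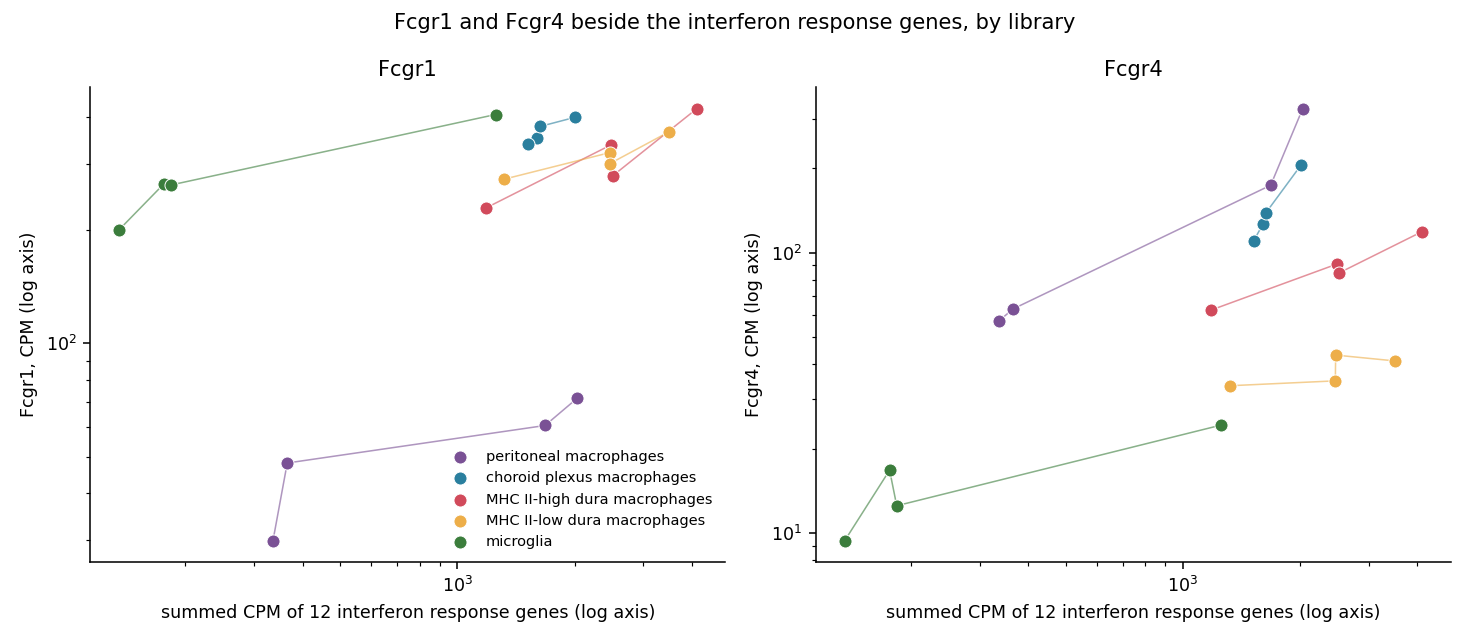
Fcgr1 (left) and Fcgr4 (right) in CPM against the summed CPM of 12 interferon response genes, on log axes; each point is a library and thin lines join the libraries of a population in order of the sum. Within each population the library with the lowest sum has the lowest Fcgr1 and Fcgr4, and microglia replicate 5 stands apart at 1253 CPM. Outside microglia the library with the lowest sum is replicate 2 in each population.

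The machinery around the receptors was read from 6 lists of 79 genes, of which 71 were tested. The share of all tested genes called in the same direction follows each share in brackets. In peritoneal macrophages 22.5% were higher (12.6%) and 25.4% lower (24.1%) than in choroid plexus, 11.3% higher (9.18%) and 22.5% lower (20.1%) than in MHC II-high dura, 18.3% higher (11.9%) and 18.3% lower (20%) than in MHC II-low dura, and 28.2% higher (18.9%) and 23.9% lower (25.7%) than in microglia. In choroid plexus 2.82% were higher (5.87%) and 14.1% lower (4.00%) than in MHC II-high dura, 4.23% higher (8.63%) and 8.45% lower (4.18%) than in MHC II-low dura, and 19.7% higher (12.1%) and 12.7% lower (7.11%) than in microglia. Between the dura populations 5 genes were called, each of them higher in MHC II-high dura (7.04% against 2.39%). Against microglia 26.8% were higher (15.7%) and 11.3% lower (12.2%) in MHC II-high dura, and 19.7% higher (13.8%) and 15.5% lower (12.7%) in MHC II-low dura. The shares of lower genes in peritoneal macrophages were thus near those of all genes.
Of the 22 tested ITAM kinases and adaptors, 5 were higher and 7 lower in peritoneal macrophages than in choroid plexus (22.7% and 31.8%, against 12.6% and 24.1% of all genes), with a median log2 fold change of -0.0024 against -0.13 for all genes, and 4 were higher and 6 lower than in microglia (18.2% and 27.3%, against 18.9% and 25.7%; median -0.42 against -0.11). Fgr, a Src-family kinase, averaged 160.7 CPM in peritoneal macrophages, 3.66 in choroid plexus, 22.4 in MHC II-high dura, 12.5 in MHC II-low dura and 10.03 in microglia. Vav3, an exchange factor for Rac, was at 44.5 to 91.4 CPM in the other populations and at 0.292 CPM in microglia. Blnk, an adaptor of Syk, averaged 15.8 CPM in peritoneal macrophages, against 129.3 to 249.5 CPM elsewhere. Syk itself, singled out after its values were seen, lay between 199.0 and 274.1 CPM and was called in none of the comparisons, with 4 past the adjusted p. Tyrobp, the other ITAM chain of macrophages and likewise singled out, was called higher in peritoneal macrophages than in choroid plexus (935.6 against 435.3 CPM, log2 1.10 ± 0.12, adjusted p = 9.59e-08) and microglia (411.2 CPM, 1.19 ± 0.12, 2.18e-08), opposite to Fcer1g.
Among the 9 ITIM phosphatases and adaptors, Inpp5d, which encodes the SHIP1 phosphatase recruited by FcγRIIB, had 210.9 ± 55.4 CPM in peritoneal macrophages, 727.9 ± 72.4 in choroid plexus, 563.7 ± 49.7 in MHC II-high dura, 491.8 ± 40.4 in MHC II-low dura and 1367 ± 223.7 in microglia. It was called lower in peritoneal macrophages than in each of the others, by log2 -1.22 to -2.70, and lower than microglia in MHC II-high dura (-1.28 ± 0.15, adjusted p = 6.85e-07) and MHC II-low dura (-1.48 ± 0.15, 1.11e-07). Fcgr2b was higher and Inpp5d lower in both dura populations than in microglia. Of the 9 genes, 1 was called higher and 2 lower in each of peritoneal, MHC II-high dura and MHC II-low dura macrophages against microglia (11.1% and 22.2%, against 13.8 to 18.9% and 12.2 to 25.7% of all genes). Dok2, an adaptor that dampens kinase signals, was at 179.7 CPM in peritoneal macrophages, 34.9 in choroid plexus, 112.5 in MHC II-high dura, 99.7 in MHC II-low dura and 1.13 in microglia. Pag1, which anchors the inhibitory kinase Csk, was at 25.7 to 53.7 CPM in the other populations, against 325.2 CPM in microglia.
Other receptor families also pair activating with inhibitory members. Of 13 such genes, 6 were higher and 5 lower in peritoneal macrophages than in choroid plexus (46.2% and 38.5%, against 12.6% and 24.1% of all genes), with a median log2 fold change of 0.53 against -0.13. Against microglia 8 were higher and 4 lower in peritoneal macrophages (61.5% and 30.8%, against 18.9% and 25.7%), and 9 higher and 2 lower in MHC II-high dura (69.2% and 15.4%, against 15.7% and 12.2%). Pilra (inhibitory) and Pilrb1 (activating) were both highest in peritoneal macrophages, at 322.1 and 114.1 CPM, against 3.52 and 0.690 CPM in choroid plexus. The activating Sirpb1a averaged 15.4 CPM in MHC II-high and 1.44 CPM in MHC II-low dura and had 0 counts in microglia, where 3 counts in a library correspond to 0.0964 to 0.222 CPM over all libraries. Among 6 tested Fc receptors outside the group, Trim21, the cytosolic antibody receptor, was at 31.2, 54.0, 53.2, 62.3 and 22.4 CPM from peritoneal macrophages to microglia in the order above, and Fcrl1 was at 6.60 CPM or less in the other populations, against 51.7 CPM in microglia. Fcer1a and Ms4a2, which complete the mast cell IgE receptor, had at most 3 counts in any population.
Of 6 partners of FcRn in IgG recycling, 1 was higher and 1 lower in peritoneal macrophages than in choroid plexus (16.7% each, against 12.6% and 24.1% of all genes). Rab11a, a GTPase of recycling endosomes, was the higher one, at 276.1 against 129.4 CPM (log2 1.09 ± 0.09, adjusted p = 1.84e-09). Of the 15 genes of the phagocytic cup and oxidase, 5 were higher and 2 lower in peritoneal macrophages than in microglia (33.3% and 13.3%, against 18.9% and 25.7%). That was the largest share of higher genes for this list. In the other comparisons it was 0 to 20%, the latter in MHC II-high dura over microglia (15.7% of all genes). Cybb, the catalytic subunit of the phagocyte oxidase, was at 2557 CPM in peritoneal macrophages, 1495 in choroid plexus, 1295 in MHC II-high dura, 758.4 in MHC II-low dura and 5.57 in microglia. Coro1a, an actin-binding protein of the phagocytic cup, was lowest in peritoneal macrophages (54.9 CPM) and highest in choroid plexus (860.5 CPM).

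**Figure D5:**
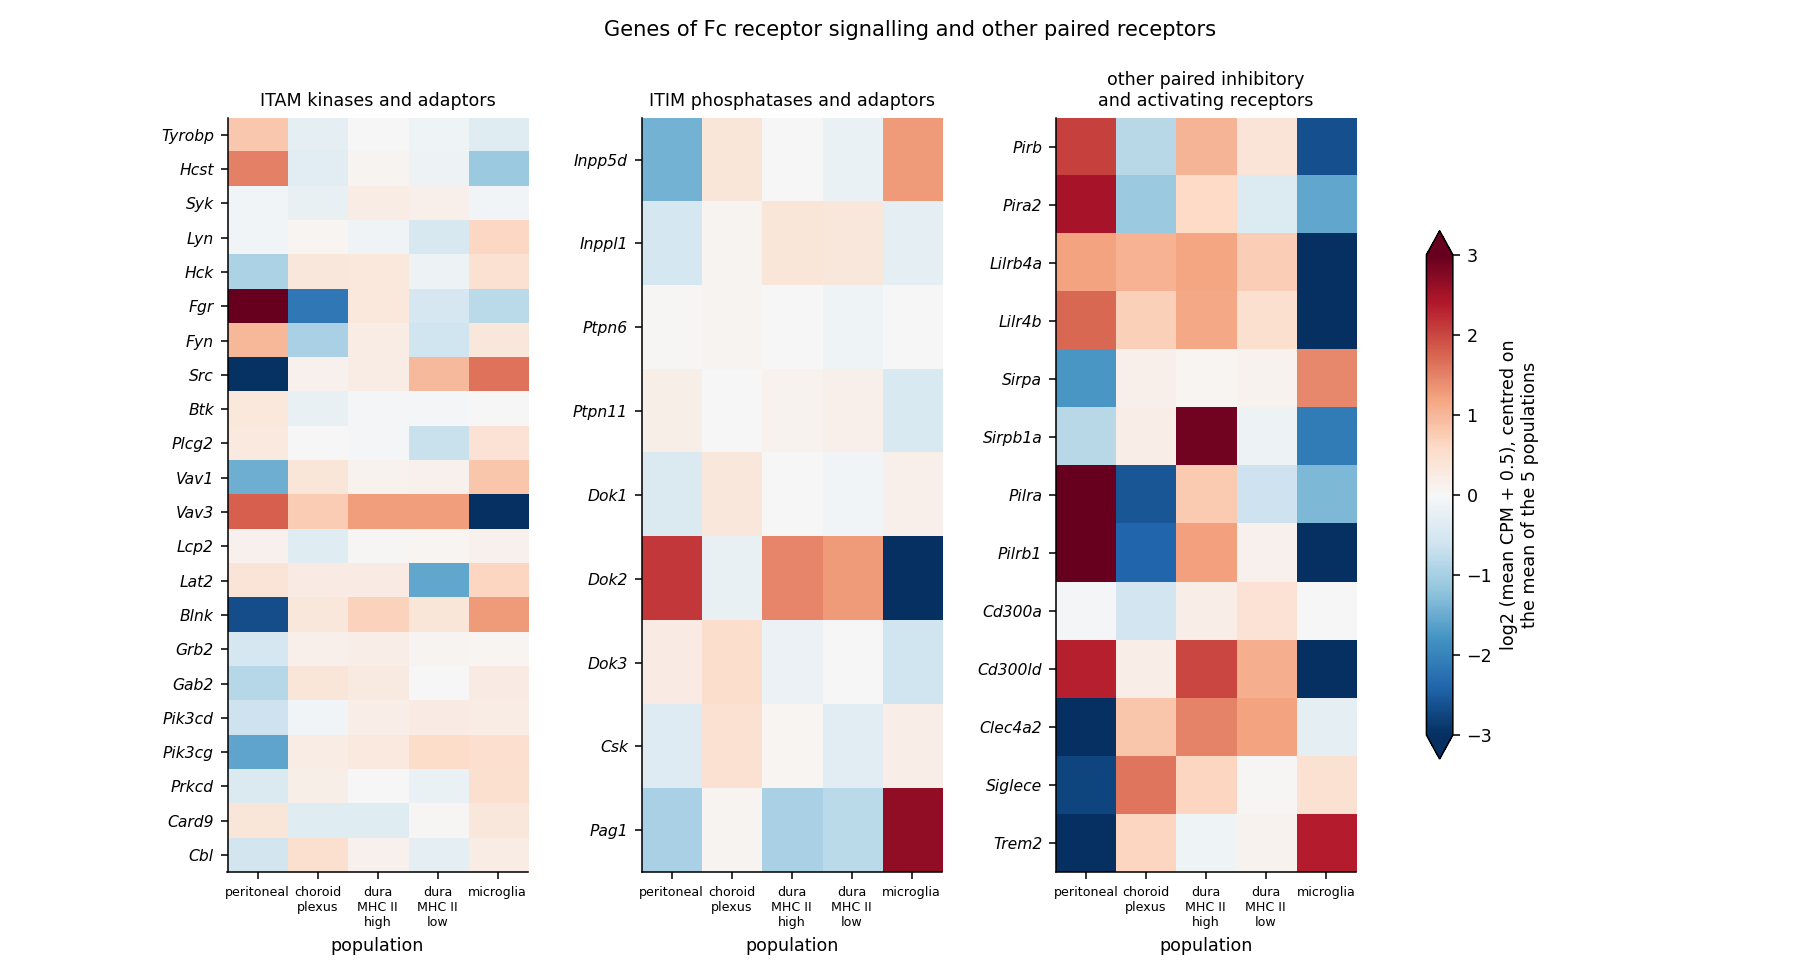
Mean level of the tested genes of 3 lists (rows) in the 5 populations (columns), as log2 of mean CPM plus 0.5, centred on each gene's mean over the populations; colours saturate at 3 in either direction. Inpp5d and Pag1 are highest in microglia, Dok2 and Vav3 are lowest there, and Syk and Ptpn6 are nearly even.

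The 7 genes lie in 4 places on GRCm38 (GENCODE M21), and all are protein coding. Fcgr2b (chr1:170958617-170976547, minus strand), Fcgr4 (chr1:171018920-171029761, plus strand), Fcgr3 (chr1:171051174-171064935, minus strand) and, a little further on, Fcer1g (chr1:171229572-171234365, minus strand) are on chromosome 1. Fcrls (chr3:87250758-87263738) and Fcgr1 (chr3:96282909-96293969) are apart from each other on chromosome 3 and Fcgrt (chr7:45092990-45103851) is on chromosome 7, all on the minus strand. Fcgr4 and Fcgr3, next to each other, had ratios of 9.84 and 1.20 between their highest and lowest population means. Exons of Fcgr2b overlap the antisense gene Gm38204 over 2.68% of their length, and since the counting is not stated to use strand, reads of both cannot be told apart there.

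Genes with the population pattern most like each member were sought among 7865 genes at 20 CPM or more, as the root mean square difference of the 5 mean log2 levels after centring. Fcgr1 was closest to Parp8 (0.0883) and Ntpcr (0.115), Fcgr3 to Pmpcb (0.0270) and Cers2 (0.0270), Fcgr4 to Slc1a5 (0.267) and Ezr (0.374), and Fcer1g to Pdcd2l (0.0385) and Birc3 (0.0653). For Fcgr2b they were Zbtb34 (0.0610) and Hspa8 (0.0879), for Fcgrt Eps15 (0.148) and Snx8 (0.181), and for Fcrls Inpp4b (0.229) and Ggt5 (0.318). Inpp4b, closest to Fcrls, averaged 0.474 CPM in peritoneal macrophages, 44.6 in choroid plexus, 39.99 in MHC II-high dura, 52.0 in MHC II-low dura and 104.1 in microglia. Eps15, closest to Fcgrt, averaged 142.3, 246.3, 419.2, 521.0 and 81.7 CPM in the same order of populations.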

How the data were processed

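The authors deposited 1 file per library with whole-number counts of reads per gene symbol. Per the submitters' processing notes, mm10 was the genome build, and TopHat2 2.1.0, SAMtools 0.1.18, Trimmomatic 0.38 and FastQC 0.11.4 were listed; the counting program, its annotation and its use of strand were not given in the sources used here. Left out were 5 lines for reads in no gene (no feature 5.67 to 13.1%, ambiguous 0.836 to 1.51%). A single fit held all 20 libraries, in edgeR 4.0.16 (R 4.3.3) with TMM scaling, filterByExpr (13960 genes kept) and the robust quasi-likelihood F test on 15 residual degrees of freedom; p-values were adjusted by Benjamini-Hochberg over all genes of a comparison. The SE is the log2 fold change divided by the root of F. DESeq2 1.42.0 was an alternative. Floors of 3 counts cover counting error only. The fit was also run on simulated counts with the same spread for every gene and few changed genes. That is a simpler case than these data, and no result here rests on it. Exon lengths and positions are from GENCODE M21, promoters from RefSeq. The members and lists were chosen with earlier results of these data known. Pathway genes were named by rule, as up to 3 called genes of a list with the largest fold change at 10 CPM or more. Exceptions are marked, apart from Fcer1a and Ms4a2 in the text and Ptpn6 in a figure caption, which were named outside the rule. Alveolar macrophages and Kupffer cells named in the series text were not analysed here.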

Additional observations from a re-analysis of the deposited data

Results flagged for a closer look

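Dixon's test for a library apart from the others was run on 50 groups of 4 values: the level of each of the 7 genes, the balance, and the sums of 2 marker lists, in each population. Chance flags about 1 in 20 such groups. It marked Fcgr2b in peritoneal replicate 3, at 297.8 CPM where the other peritoneal libraries had 203.2 to 206.7 CPM (gap over range 0.963). It also marked the choroid plexus epithelium sum of microglia replicate 3, at 20150 CPM against 65.3 to 708.7 CPM in the other microglia libraries (0.968), and the interferon response sum of microglia replicate 5, at 1253 CPM against 135.1 to 183.8 CPM (0.956). Fcgr1 and Fcgr4 in microglia replicate 5, at 405.9 and 24.3 CPM, were the highest microglia values without being marked.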

How the results depend on the processing

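Of the recomputed fold changes of the 7 genes, 1759 kept direction and side of the threshold, 21 lost and 7 gained a call, and 33 changed sign, none of them called. The number of members called was within 1.5 times in all comparisons but MHC II-high over MHC II-low dura, where DESeq2, the fit of these 2 populations alone and the replicate block gave 1 instead of 0, and leaving out single libraries gave 0 to 1; the gene was Fcgr4, and the cause was not tested. The replicate numbers were not taken to pair the libraries: over 36 pairs with the same number, deviations from the population means correlated at -0.152 to 0.155, and in no comparison did every pair exceed 0.1. The dura populations came closest, at 0.0993 to 0.155, where 4 of 4 libraries correlated best with their own number, a hint from the data and not from the design. Some of the 7 genes followed the number more widely. In every population but microglia, Fcgr1 and Fcgr4 were lowest in replicate 2 and Fcgr2b was highest in replicate 3. The other members had no such number common to these populations. Libraries of the same number may therefore not be independent. With the replicate block, MHC II-high over MHC II-low dura was 1.19 for Fcgr4 (adjusted p = 0.0379, edgeR), -0.18 for Fcgr2b (0.416), -0.66 for Fcgrt (0.000557) and -0.90 for Fcrls (0.0712). The signs that changed belonged to differences near 0. Fcgr4 in peritoneal over choroid plexus macrophages was -0.14 with the replicate block and -0.57 to 0.37 over the fits that leave out a library. Fcgr3 in peritoneal over microglia was -0.0166 with DESeq2, -0.0167 with RLE size factors, -0.0352 with a minimum of 10 CPM and -0.0681 to 0.0802 over the leave-outs. Fcgr3 in choroid plexus over MHC II-low dura was -0.0116 without a filter and -0.0359 to 0.0690 over the leave-outs. Fcgr1 in MHC II-high over MHC II-low dura was -0.0037 with DESeq2, -0.0037 with RLE factors, -0.0088 without a filter, -0.0080 with a minimum of 10 CPM, -0.0065 in the fit of these 2 populations alone, -0.018 with the replicate block and -0.15 to 0.13 over the leave-outs. Fcgr1 over microglia was -0.0601 to 0.31 in MHC II-high dura and -0.0495 to 0.30 in MHC II-low dura over the leave-outs. The balance moved where a single receptor stood for the activating side. Against Fcgr1 alone its difference was 1.94 for peritoneal over choroid plexus, 1.33 over MHC II-high dura, 1.18 over MHC II-low dura and 2.19 over microglia, and over microglia 0.25 for choroid plexus, 0.85 for MHC II-high and 1.01 for MHC II-low dura. Against Fcgr3 alone it was 0.76 for choroid plexus and 1.25 for MHC II-high dura over microglia. Against Fcgr4 alone it was -1.76 for peritoneal over MHC II-high dura, -3.13 over MHC II-low dura and -3.29 over microglia; -1.06 for choroid plexus over MHC II-high dura, -2.43 over MHC II-low dura and -2.59 over microglia; -1.37 for MHC II-high over MHC II-low dura; and over microglia -1.54 for MHC II-high and -0.16 for MHC II-low dura. These shifts follow from the different patterns of the 3 activating receptors over the populations.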
